A study of Mus musculus with 24 samples.

Results

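The livers described here are those of the control mice of a cancer cachexia study: 8 CD2F1 mice that were sham-injected and, per the labels, carried no tumour. They were taken as the 8 columns of the normalized count table that the sample labels assign to the control group, CT 1 to CT 8, out of 24 mice in the series. CD2F1 is a hybrid of the BALB/c and DBA/2 strains. The labels give no age, sex, feeding state, time of killing or batch. No value of a tumour-bearing mouse is given below. The deposited scaling of each library was set over all 24 libraries, so the tumour-bearing mice enter the normalized values through it. The questions are which genes make up the RNA of the untreated liver, which genes differ from mouse to mouse, and which of them vary together.

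The liver makes most plasma proteins, clears drugs and ammonia, stores and releases glucose, and makes fat, cholesterol and bile acids. Many of its genes move within a day. The circadian clock is a loop in which Arntl (also called Bmal1) and Clock switch on Dbp, Nr1d1 and the Per and Cry genes, whose products feed back on them. Feeding and insulin raise the fat-making enzymes through Srebf1, fasting raises Igfbp1 and the glucose-making enzymes Pck1 and G6pc, the fatty acid sensor PPAR alpha drives Cyp4a14, falling sterol drives Sqle, and interferon drives Ifit1. Dbp, Igfbp1, Fasn, Sqle, Cyp4a14 and Ifit1 served below as index genes, that is, single genes against which all others were set across the 8 mice.

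Libraries held 22.02 ± 1.1 M recovered reads (SD, n = 8), from 20.75 M in CT 7 to 24.07 M in CT 2, and the correlation of log2 values between libraries ran from 0.9776 to 0.9898 over 28 pairs. Every pair differed by more than sampling noise (chi-square per degree of freedom 13.5 to 69.2 over genes with at least 20 reads), so no library was counted as a repeat of another. Of 14 hepatocyte markers, 13 were in the table, and their summed normalized value ran from 2069786 in CT 8 to 2324179 in CT 4. The Y-linked gene Ddx3y was read in every mouse at normalized values of 1026 to 1753, and Xist lay between 8.615 and 15.89. Some libraries stood apart. The share of reads from mitochondrially encoded mRNAs was 3.79% in CT 6 against 5.87 to 7.21% in the other 7 mice. Adipocyte transcripts were present in CT 7, CT 2 and CT 4: Adipoq, the fat-cell hormone adiponectin, had normalized values of 99.9, 51.73 and 24.35 there and at most 1.762 in the other mice. Red-cell markers summed to 23757 in CT 4 and to between 11612 and 16612 elsewhere. The dependence of a library on transcript base composition also differed, with slopes from -0.111 (CT 8) to 0.174 (CT 2) on the log2 scale per 10 percentage points of GC over 10282 genes.

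Transcript output was concentrated in a few genes. On a per-length scale (TPM, the share of each gene among all transcripts after division of its reads by gene length, computed from the recovered reads and the annotated exon length), the 10 highest genes of each mouse held 23.4% ± 1.2 of the output, the 100 highest held 57.4% ± 0.917 and the 1000 highest held 83.1% ± 0.481 (SD, n = 8). Without division by length, the 10 genes with the most reads held 16% ± 0.57 of the reads. Of the genes listed with a length, 15 lay at 10000 TPM or more, 111 between 1000 and 10000, and 9457 under 1 TPM. Albumin, the main plasma protein, was in first place in every mouse, at 48102 ± 2728 TPM (SD, n = 8) and 5.19% ± 0.307 of reads. Alb lies on chromosome 5 at 90460897 to 90476602 (GRCm38).

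Behind albumin stood genes of 3 kinds. Mitochondrially encoded respiratory chain subunits were the first kind, with mt-Co1 at 29968 ± 3776 TPM, mt-Co2 at 19360 ± 2530, mt-Atp6 at 15486 ± 3063, mt-Co3 at 14671 ± 2337, mt-Cytb at 11042 ± 2841 and mt-Nd1 at 9711 ± 1129. Secreted carriers of lipid and hormone formed the second: Apoa2 (22944 ± 2783 TPM) and Apoa1 (12467 ± 1077), which build high-density lipoprotein, Apoe (16598 ± 1766) and the thyroid hormone and retinol carrier Ttr (7918 ± 574). The third were protease inhibitors and urinary proteins: Serpina1a (17232 ± 1050 TPM), Serpina1c (14851 ± 893), Serpina3k (13277 ± 806), Serpina1b (9612 ± 410), Serpina1d (8093 ± 804) and Mup3 (14974 ± 1183). Fabp1, which carries fatty acids inside hepatocytes, had 11789 ± 1590 TPM. The order of neighbours was often not fixed. Apoa2 held ranks 3 to 5 over the 8 mice and mt-Cytb ranks 11 to 28. By reads alone, Serpina1a stood at rank 4 and Fabp1 at rank 41.

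Some of the 20 highest TPM values need care. Gm23935, in second place at 33217 ± 8657 TPM, is a microRNA annotation of 57 bases that stood at rank 150 by reads, and its TPM divides by that short length. Gm42418, annotated as a long noncoding RNA of 1831 bases, had 8752 ± 2323 TPM. Gm23935, Gm42418 and the microRNA annotation Gm24270 were tracked together as possible ribosomal RNA, at 0.431% (CT 1) to 1.12% (CT 8) of reads. Whether these reads are ribosomal was not tested. The Serpina1 and Mup genes are near-identical copies, and how the counting treated reads that match several of them is not known, so their single values are uncertain.

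By function, mitochondrially encoded mRNAs made up 12.9% ± 2.1 of output (SD, n = 8, 13 genes). Serpins and other plasma protease inhibitors made up 9.15% ± 0.359 (64 genes), apolipoproteins 6.59% ± 0.536 (14 genes) and major urinary proteins, the pheromone carriers of mouse urine, 5.19% ± 1.39 (21 genes). Plasma carriers and acute phase proteins other than these held 4.29% ± 0.23, and complement and coagulation factors 2.39% ± 0.0549. With albumin (4.81% ± 0.273), these 6 secreted groups took 32.4% ± 1.37 of output from 166 genes. Counted as reads without length, they took 27.7% ± 0.559. By reads, the mitochondrially encoded mRNAs fell to 6.09% ± 1.04, below the serpins and protease inhibitors at 8.92% ± 0.242, and the major urinary proteins to 2.61% ± 0.663, so the order of the groups depends on the division by length. Phase II conjugation enzymes and carboxylesterases had 2.43% ± 0.171, amino acid catabolism and the urea cycle 2.38% ± 0.149, fatty acid oxidation 2.26% ± 0.183 and the 88 cytochrome P450 genes 2.25% ± 0.118, of which Cyp2e1 held 31.5%. Cytosolic ribosomal proteins took 1.7% ± 0.105.

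The groups differed in how steady they were. Complement and coagulation had a coefficient of variation (CV, the SD as a percent of the mean) of 2.3% over the 8 mice, antioxidant and metal-binding proteins 2.94% and albumin 5.67%. Major urinary proteins had a CV of 26.8%, fatty acid and triglyceride synthesis 20.4% and mitochondrially encoded mRNAs 16.3%. CT 6 was at the extreme of both large variable groups, with the highest share of urinary proteins, 8.16% against a median of 4.63%, and the lowest share of mitochondrial mRNAs, 8.19% against a median of 13.2%. Shares sum to a fixed total, so a high share of one group lowers the others.

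**Figure D1:**
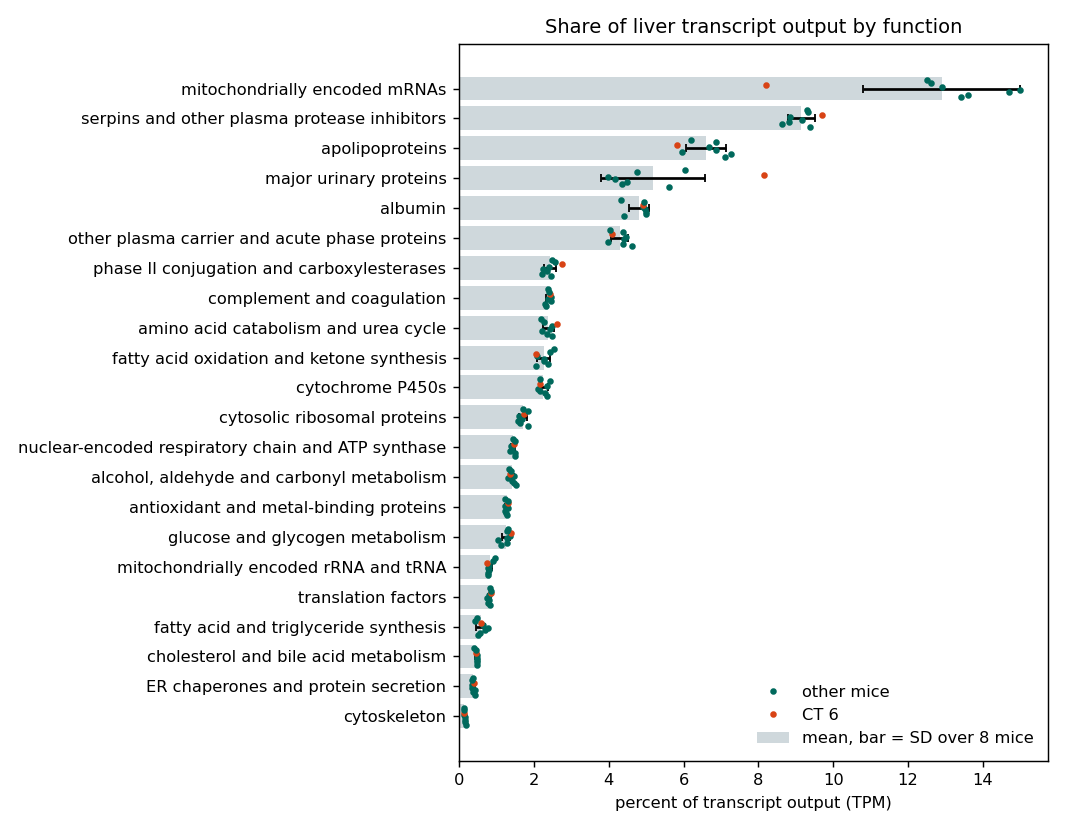
Share of transcript output (percent of TPM, horizontal axis) held by each functional group. Bars are means with SD over 8 mice and points are single mice. CT 6 lies lowest for mitochondrially encoded mRNAs (8.19%) and highest for major urinary proteins (8.16%).

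Genes that differed between mice were found from the variance of each gene's normalized value (reads divided by the size factor of the library). This was set against the variance that a trend fitted over all tested genes gives for its mean. The median ratio of observed to fitted variance was 0.551 over all genes, so most genes lay below the trend. Of the 13897 genes whose mean over the mice reached 10, 590 were more variable at an adjusted p under 0.05 (4.25%, chi-square test with 7 degrees of freedom, Benjamini-Hochberg), and 1202 at an unadjusted p under 0.05. The median CV was 13.9% over all genes tested and 39.9% over the 590. A test on the variance of log2 values with moderation called 0 genes, so the count holds on the linear scale only. Leaving out CT 2, CT 4 and CT 7, the mice with adipocyte transcripts, gave 388. With 1 library per mouse, differences between animals cannot be told apart from those of dissection and library preparation.

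Several of the most variable named genes had their highest value in CT 2. Cyp2b9, an enzyme known from female mouse liver, had a lowest normalized value of 0.8875 (CT 8), a median of 9.91 and a highest of 444 (CT 2). Cyp2a4, which acts on steroids and is near-identical to Cyp2a5, ran from 347.1 (CT 3) over a median of 539.8 to 2211 (CT 2). Cyp2c38 and Cyp2c39, members of a family with shared sequence, also peaked in CT 2, at 2157 and 3487 against lowest values of 292.9 and 509.4 in CT 8. In each of these 4 genes, CT 2 lay above every other mouse, while the summed share of all 88 cytochrome P450 genes was highest in CT 7 (2.43%) and was 2.31% in CT 2.

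A further 7 of these genes had their highest value in CT 4. Mt2 and Mt1 encode metallothioneins, small proteins that bind zinc. Mt2 ran from 134.2 (CT 1) over a median of 319 to 2243 (CT 4), and Mt1 from 265.7 (CT 1) over 848.4 to 4160 (CT 4). Ddit4, an inhibitor of mTOR signalling, had 819.2 in CT 4 and 51.8 in CT 7. Bcl6, a transcriptional repressor, had 1797 in CT 4 against a median of 440.4 and a lowest value of 205.7. Arrdc2, Gadd45g and Tcim had their highest values in CT 4 as well, at 1304, 1794 and 1346.

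Other genes singled out CT 6 and CT 8. Zbtb16, a zinc-finger repressor induced by glucocorticoid, had 1663 in CT 6 and 667.4 in CT 8, against a lowest value of 104.2 and a median of 194.6. The heat shock protein genes Hspa1b and Hspa1a, near-identical copies, had 1246 and 551.1 in CT 8 and 783 and 338.9 in CT 6, against medians of 332.7 and 126.4. Mup-ps19 and Gtpbp4-ps1, both pseudogenes that share sequence with other genes, were highest in CT 6, at 24322 and 210.6. Fabp4, a fatty acid carrier of fat cells, was highest in CT 7 and CT 2, at 989.7 and 466.4, the mice with the most Adipoq.

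**Figure D2:**
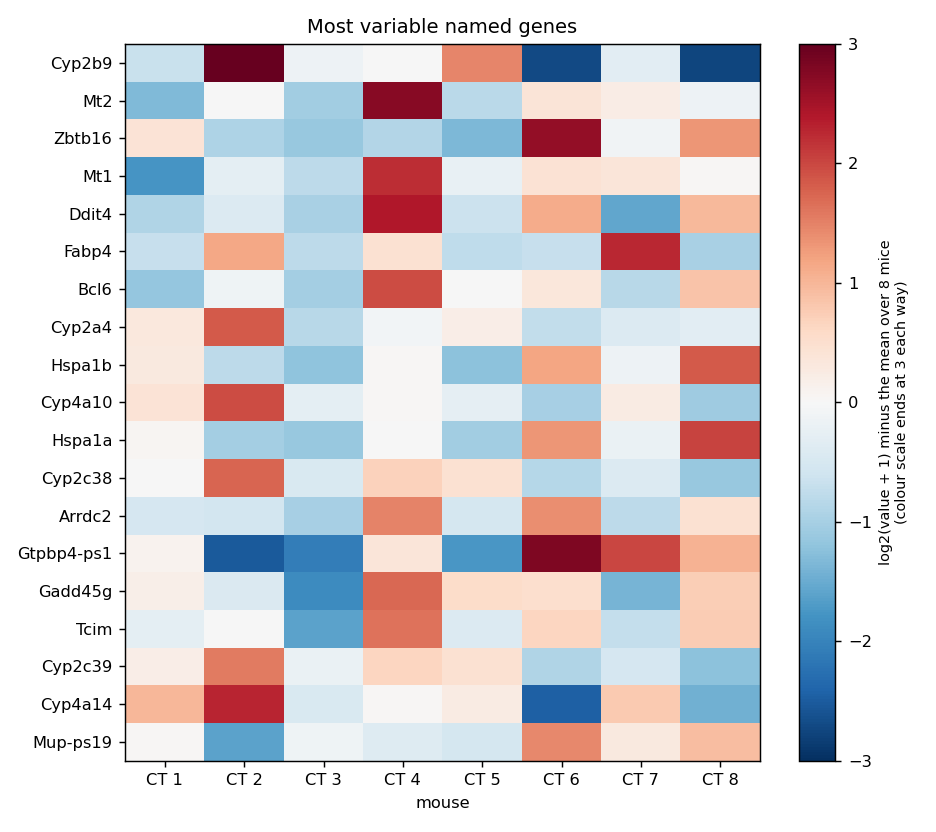
Named genes among the 20 most variable (rows) in the 8 mice (columns). Colour is log2(value + 1) minus the gene's mean over the mice; high values stand mainly in CT 2 (Cyp2b9, Cyp2a4, Cyp4a14), CT 4 (Mt2, Mt1, Ddit4) and CT 6 (Zbtb16).

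CT 6 was the mouse farthest from the median for 140 of the 590 variable genes, CT 2 for 88 and CT 5 for 25. The first principal component of all tested genes held 27.9% of the variance and ran from CT 2 (score -21.9) to CT 8 (21.3) and CT 6 (34.2). The second held 17% and ran from CT 2 (-18.7) and CT 4 (-17.2) to CT 3 (27). Genes leading the first were Zbtb16, Hspa1a and Mup20 on the side of CT 6, and Cyp2b9, Cyp2c39 and Cyp4a14 on the side of CT 2. The second was led by Socs2, Cish and Onecut1 on the side of CT 3, and by Plin4, Mt2 and Noct on the other.

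Whole lists differed in how many members varied. Counts are read against the 4.25% of all genes, and the genes of a list are not independent of each other. Lists also overlap, so some called genes count in several of them. Examples are Fasn and Scd1 (fed and fatty acid lists) and Tat (fasting and glucocorticoid lists). Of 14 tested glucocorticoid targets, 11 were variable, as were 11 of 16 fed and insulin response genes, 11 of 17 female-biased liver genes, 10 of 19 immediate early genes, 9 of 22 male-biased liver genes, 8 of 18 fatty acid synthesis genes, 8 of 20 fasting genes, 8 of 25 cholesterol genes, 7 of 25 PPAR alpha targets and 9 of 47 interferon response genes. Of the cell type lists, 5 of 7 adipocyte and 4 of 6 red-cell markers were called. For 14 Kupffer cell and 13 sinusoidal endothelial markers the count was 0 each, which is near the share over all genes. A change in the number of cells of a type and a change in RNA per cell cannot be told apart in whole tissue.

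**Figure D3:**
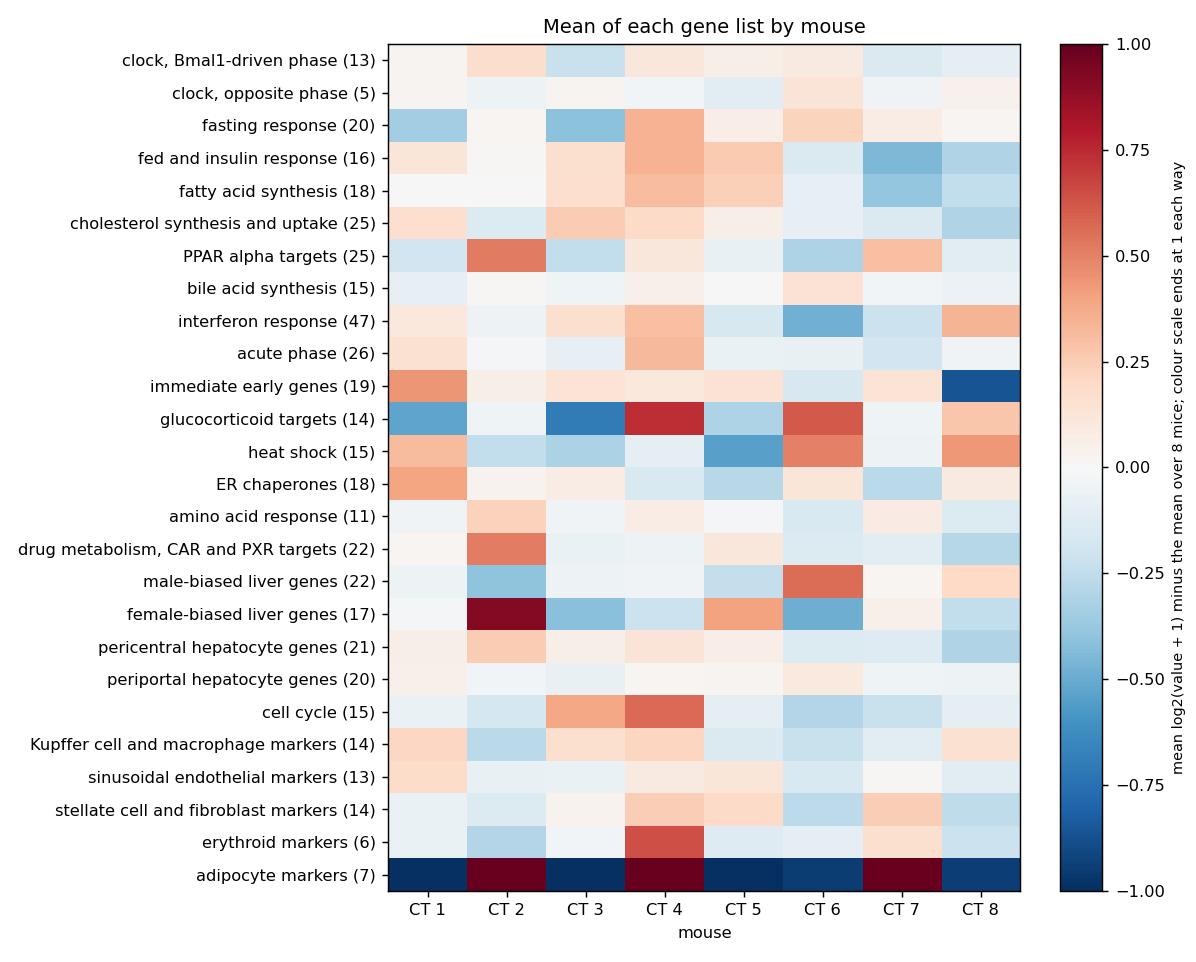
Mean log2(value + 1) of each list's tested members (number in brackets) minus its mean over the 8 mice, by mouse. Glucocorticoid targets are highest in CT 4 (0.738) and CT 6 (0.613) and lowest in CT 3 (-0.703), and adipocyte markers are highest in CT 7, CT 2 and CT 4, beyond the end of the colour scale.

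The clock was read from Dbp, a transcription factor whose mRNA swings widely over the day. Dbp lies on chromosome 7 at 45705088 to 45710203 (plus strand, GRCm38). Its normalized value was 1561 at the lowest (CT 8), 2475 at the median and 3101 at the highest (CT 2). CT 6, CT 7 and CT 8, at 1561 to 1936, lay apart from the other 5 mice at 2458 to 3101. The range was 1.99-fold, and Dbp was not called variable (adjusted p = 0.189, chi-square test). Nr1d1 (also called Rev-erb alpha), a repressor of Arntl, had a wider range of 3.25-fold, from 671.5 (CT 7) over 1442 to 2180 (CT 2), and was called (adjusted p = 7.77e-09). The same 3 mice, CT 6 to CT 8, had the lowest Nr1d1 values.

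Nr1d1 was the 1 member of the 17 tested in both clock lists that passed the threshold with Dbp (r = 0.889, slope 1.69 ± 0.277 SE, adjusted p = 0.027, limma on log2 values). With each mouse left out in turn its r stayed between 0.851 and 0.934, but its call was lost without CT 2 (adjusted p = 0.12 in limma), CT 6 (0.0626), CT 7 (0.051) or CT 8 (0.102), and with library depth as a covariate (0.319). Per3 and Bhlhe41, which are switched on by the same factors, had r = 0.697 and 0.689 with adjusted p = 0.14 and 0.139. Tef and Hlf, the nearest relatives of Dbp, had r = 0.0529 and 0.125, and Per1, Per2 and Ciart had r = 0.0835, -0.302 and 0.0402. Over the 12 tested members of the phase of Dbp, the median r was 0.068, beside 0.075 for all genes tested. Cry1, which peaks later than Dbp, had r = -0.802 (adjusted p = 0.0733) and was lowest in CT 2 (138.8) and highest in CT 6 (285.2). Arntl, whose peak lies opposite to that of Dbp in a normal day, had r = 0.668 (adjusted p = 0.239). It was read at low values, from 13.87 (CT 7) over 29.18 to 33.62 (CT 2), with 238 reads over the 8 mice.

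The promoter of Per3 is shown because it holds the D-box, the site that Dbp, Tef and Hlf are known to bind. The letters searched were TTATGTAA, on both strands, in the 250 bases before each RefSeq start. They occur in 0.819% of 32851 such windows and, among the 11 genes of the Dbp-phase list with a window, in Per3 alone. The capitals mark them in the sequence from chr4:151044666-151044915 (minus strand, RefSeq, GRCm38.p6), read toward the gene.
Per3: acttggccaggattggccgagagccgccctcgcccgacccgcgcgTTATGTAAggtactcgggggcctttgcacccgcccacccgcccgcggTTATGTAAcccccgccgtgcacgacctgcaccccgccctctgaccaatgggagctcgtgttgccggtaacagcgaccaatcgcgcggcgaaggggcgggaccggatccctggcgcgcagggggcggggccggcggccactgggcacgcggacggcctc
The window holds 2 matches. The E-box bound by Arntl and Clock, with the letters CACGTG, occurs in 6.02% of all windows and in the windows of Tef, Per1, Ciart, Bhlhe41 and Cry1. A match is a string of letters and no evidence of binding in these livers.

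Across all genes, 117 were higher with Dbp (0.842% of 13896) and 60 lower (0.432%) at adjusted p under 0.05 in limma, and 97 and 86 in edgeR's quasi-likelihood test on the recovered reads. At an unadjusted p, 12.3% of genes were higher and 9.41% lower. The gene most like Dbp was Agxt, an enzyme that detoxifies glyoxylate. It ran from 3264 (CT 8) over 4843 to 5818 (CT 2), with r = 0.985 (slope 0.816 ± 0.0956 SE, adjusted p = 0.0135). Tbc1d10a (r = 0.981), the receptor gene Pdgfrb (0.98), Ninj1 (0.973) and Leng8 (0.971) came next, and r was measured over the 8 mice. Opposite to Dbp were the splicing factor gene Sfpq (r = -0.971), Golga3 (-0.97), Ikzf5 (-0.968), Zfp790 (-0.966) and the laminin chain gene Lama3 (-0.962). Sfpq had 1178 to 1378 in CT 6 to CT 8 and 644.9 to 887.2 in the other 5 mice. It was picked by its r with Dbp, which is low in CT 6 to CT 8, so this split follows from the choice.

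Genes of known liver patterns were among those called, beside 0.842% of all genes called higher and 0.432% called lower. Of the 22 male-biased genes, 17 had r below 0 (median -0.57) and 3 were called, Mup20 (r = -0.851, adjusted p = 0.0381), the oxysterol hydroxylase Cyp7b1 (r = -0.86, adjusted p = 0.0362) and Ugt2b38. Mup20, which encodes the pheromone darcin, ran from 6900 (CT 2) over 19874 to 54736 (CT 6). Of 21 genes of the pericentral zone, the Wnt-driven hepatocytes around the central vein, 20 had r above 0 (median 0.66) and 1 was called, the Wnt feedback gene Rnf43 (r = 0.89, adjusted p = 0.0362). Of 20 periportal genes 1 was called higher too (median r 0.043). The P450 genes Cyp2c29, Cyp2c38 and Cyp2c50, which share sequence, were called higher, and the heat shock gene Hspa1a lower (r = -0.849, adjusted p = 0.0382). Other lists also moved with Dbp. Fed and insulin, fatty acid synthesis and immediate early genes each had a median r of 0.52, cholesterol genes 0.51 and heat shock genes -0.6, beside 0.075 for all genes. The tie was therefore not particular to the male-biased or pericentral genes.

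The number of genes called with Dbp was not stable. It was 1 without CT 2, 5 without CT 8, 20 without CT 7, 33 without CT 6, 57 without CT 5, 102 without CT 1 and 285 without CT 3, 47 after scaling to total reads, and 0 with library depth as a covariate or with Arntl, sign turned, as the index gene. Library properties also moved with Dbp: the GC slope (r = 0.786, rho = 0.905, r = 0.613 without the 2 mice farthest from the median slope, exact permutation p = 0.025, adjusted p = 0.35 over 42 tests) and total reads (r = 0.675, rho = 0.762, r = 0.466 without the 2 mice farthest from the median depth, exact permutation p = 0.0637, adjusted p = 0.636). After the GC dependence of each library was removed, 0 genes were called, with a lowest adjusted p of 0.0535. All 177 genes kept their sign and an unadjusted p under 0.05 in limma on those values, and Nr1d1 had r = 0.873 (adjusted p = 0.0622). These genes were picked by a small p in the same mice, so this follows in large part from the choice.

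**Figure D4:**
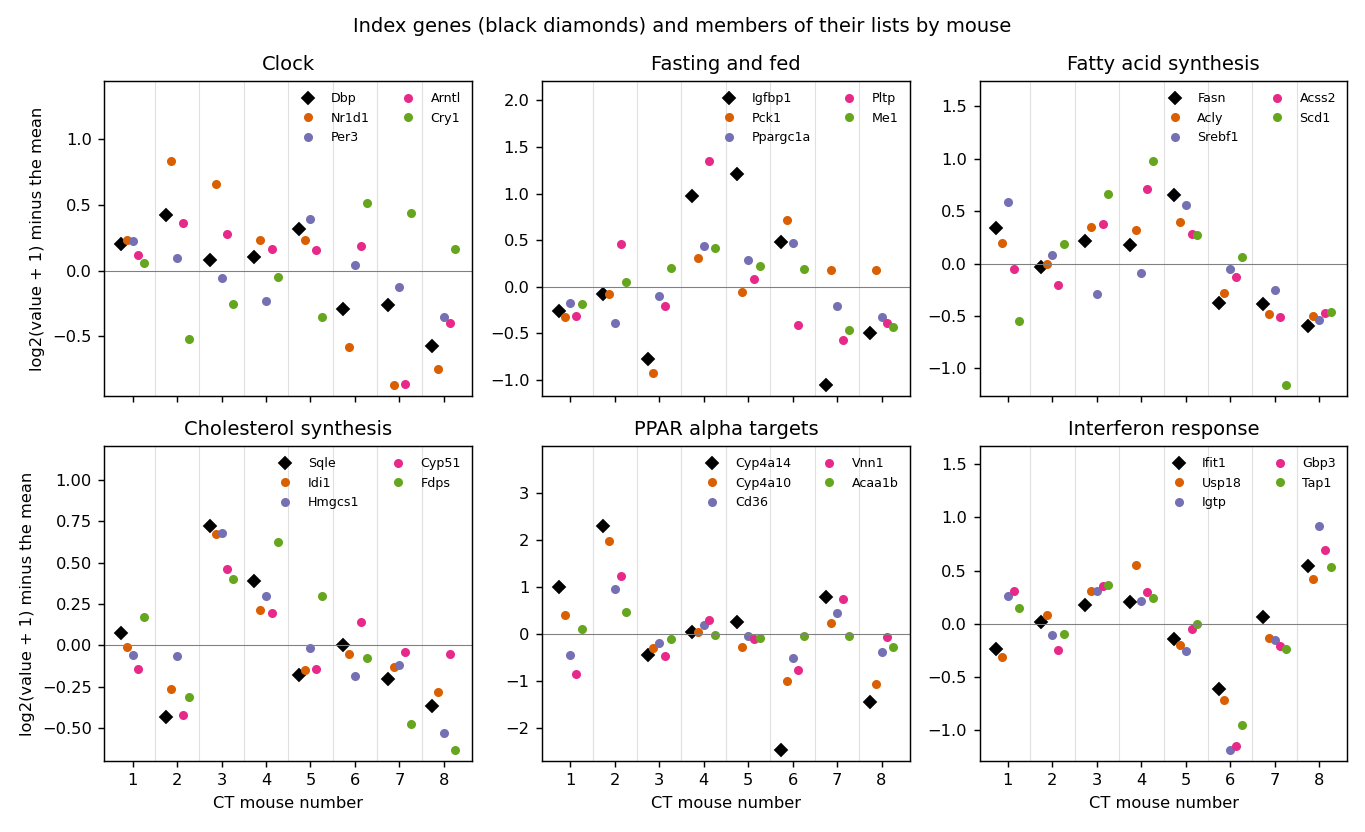
Normalized values of each index gene (black diamonds) and 4 members of its list, as log2(value + 1) minus the gene's mean (vertical axes), in CT mice 1 to 8 (horizontal axes, mice have no order). Dbp and Fasn are low in CT 6, CT 7 and CT 8, Sqle and its list members are high in CT 3, and the interferon genes are lowest in CT 6. Most members shown were picked by a small p with their index gene.

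Igfbp1 was the index gene chosen for feeding state. It is a secreted binder of insulin-like growth factor, high in fasting and shut off by insulin (chromosome 11, 7197782 to 7202546). Its normalized value was 469.9 at the lowest (CT 7), 869.1 at the median and 2256 at the highest (CT 5), and it was called variable (adjusted p = 8.05e-20). CT 4, CT 5 and CT 6, at 1354 to 2256, stood above the other 5 mice, at 469.9 to 923.3. The genes of glucose output had narrower ranges than Igfbp1. Pck1 ran from 27996 (CT 3) over 55828 to 87417 (CT 6), and G6pc from 4036 (CT 1) over 9000 to 10529 (CT 4). Lpin1, a phosphatidate phosphatase that rises in fasting, ran from 820.1 (CT 3) over 2557 to 3863 (CT 4). The fasting hormone Fgf21 was low in all, from 3.531 (CT 1) to 80.18 (CT 2). CT 1 and CT 3 had the lowest mean over the 20 fasting genes, at -0.35 and -0.409 on the log2 scale, and CT 4 the highest, at 0.345.

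No gene passed the threshold with Igfbp1 (0% of 13896 in limma, 0 in edgeR), and at an unadjusted p 2.35% were higher and 1.34% lower. The nearest in the higher direction was Ppp1r3g, a subunit that targets a phosphatase to glycogen (r = 0.948, adjusted p = 0.0772). It ran from 141.8 (CT 3) over 245.2 to 551.2 (CT 5). Fnip2, Sbk1, Rgs16 and Anks1 followed, with r from 0.884 to 0.95, and Zyg11a, Onecut1, Tuft1, Slc25a30 and Serpina4-ps1 were nearest in the lower direction, with r from -0.948 to -0.826. None of these was called. Of the 19 other fasting genes, 16 had r above 0, with a median of 0.36. The coactivator gene Ppargc1a (r = 0.772), Klf15 (0.733) and the aminotransferase gene Got1 (0.657) led them. Pck1 had r = 0.396, G6pc 0.296 and Pdk4, which spares glucose in fasting, -0.45.

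All 16 tested fed and insulin genes had r above 0, with a median of 0.51 beside 0.36 for the fasting list, and the first with one mouse left out lay between 0.33 and 0.59. The malic enzyme gene Me1 (r = 0.735), Pltp (0.611), Acss2 (0.606) and Scd1 (0.596) led. Both the fasting and the fed list had their highest mean in CT 4. Since both lists rose with Igfbp1, it cannot be taken to order these mice from fed to fasted. With Igfbp1, 3 genes were called without CT 4.

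Fat synthesis was read from Fasn, the enzyme that builds palmitate (chromosome 11, 120805846 to 120824547). Its normalized value was 7408 at the lowest (CT 8), 11759 at the median and 17618 at the highest (CT 5), and it was called variable (adjusted p = 0.00114). CT 6, CT 7 and CT 8 lay lowest, at 7408 to 8587, against 10915 to 17618 in the others, the same split of mice as for Dbp. Acly, which supplies cytosolic acetyl-CoA, ran from 5668 (CT 8) over 8594 to 10570 (CT 5). Scd1, which makes oleate, ran from 40922 (CT 7) over 99373 to 179181 (CT 4). Srebf1, the insulin-driven regulator of the group, had 5225 (CT 8) to 11397 (CT 1).

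With Fasn, 0% of genes passed the threshold in limma (0 in edgeR), and at an unadjusted p 7.4% were higher and 5.13% lower. Acly had the smallest p in the higher direction (r = 0.939, adjusted p = 0.208). With each mouse left out its r stayed between 0.913 and 0.953. Of the other 17 fatty acid synthesis genes, 16 had r above 0, with a median of 0.58 beside 0.053 for all genes, and the median stayed between 0.52 and 0.67 with a mouse left out. Srebf1 (r = 0.777), the citrate carrier gene Slc25a1 (0.715), Acss2 (0.711) and Acaca, the rate-limiting carboxylase (0.709), stood at the top. Fads2, a desaturase of polyunsaturated fatty acids, was the exception at -0.602. Other lists also moved with Fasn: cholesterol genes had a median r of 0.57, immediate early genes 0.53 and heat shock genes -0.57. The tie was therefore not particular to fatty acid synthesis. Rassf5, Aldh1b1, Dixdc1 and Fam198a were nearest among other genes, and Arhgef26, Trmt10c, Dnttip2, Dcun1d3 and Ccdc117 in the opposite direction, all uncalled. With Acly as the index gene 6 genes were called.

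**Figure D5:**
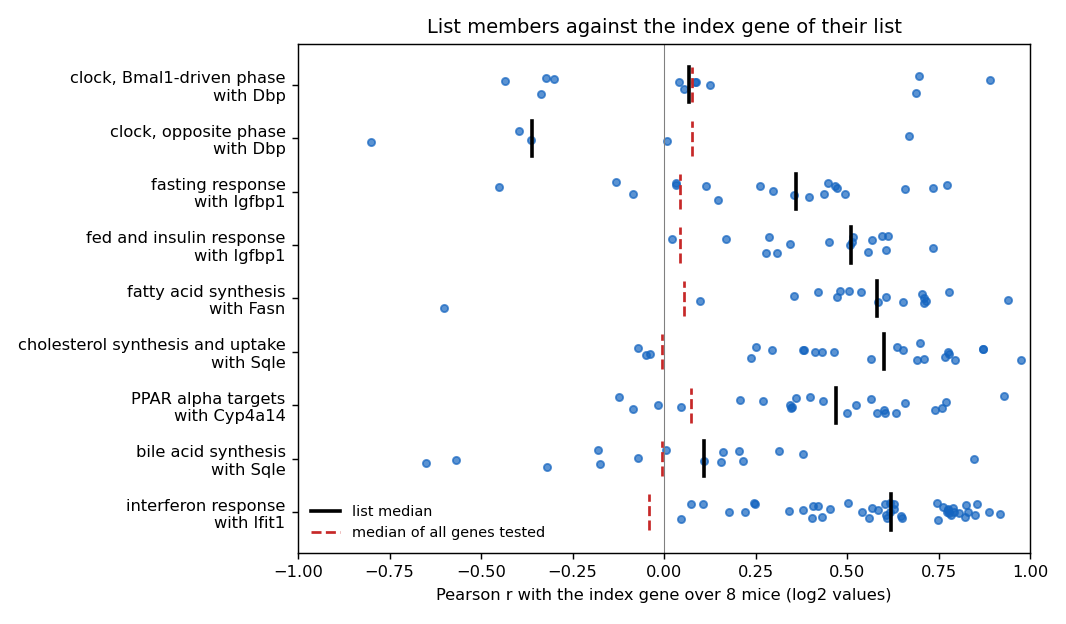
Pearson r of each list member (points) with the index gene of its list over 8 mice, with the list median (black bar) and the median of all genes tested (red dashes). Interferon, cholesterol and fatty acid synthesis lists have medians of 0.62, 0.6 and 0.58, and the clock list of the phase of Dbp has 0.068.

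Cholesterol synthesis was read from Sqle, squalene epoxidase, a rate-limiting step that is switched on by Srebf2 when sterol is low (chromosome 15, 59315077 to 59331192). Sqle had normalized values from 552.6 (CT 2) over 703.7 to 1234 (CT 3) and was called variable (adjusted p = 0.00468). Idi1, which makes the isoprene units upstream, ran from 1880 (CT 8) over 2141 to 3644 (CT 3). Hmgcs1, which makes HMG-CoA, ran from 1554 (CT 8) over 2155 to 3605 (CT 3). In Sqle, Idi1 and Hmgcs1, CT 3 was highest and CT 4 second. Idi1 and Hmgcs1 were picked by their small p with Sqle, so this likeness follows in part from the choice.

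No gene passed the threshold with Sqle in limma (0%), 1 did in edgeR, and at an unadjusted p 1.6% were higher and 1.68% lower. Idi1 had r = 0.975 (adjusted p = 0.0765), and 0.991 without CT 3. Hmgcs1 and Cyp51, a demethylase of lanosterol, had r = 0.872 and 0.871, which were 0.702 and 0.735 without CT 3. Of 24 members, 21 had r above 0, with a median of 0.6 beside -0.0048 for all genes. The median lay between 0.52 and 0.66 with a mouse left out and was 0.55 on GC-corrected values. Pmvk (r = 0.794), Fdps (0.779), Msmo1 (0.775) and Mvd (0.767) belong to the same pathway. Srebf2, the regulator of the group, had r = -0.0378. Among other lists, cell cycle genes had a median r of 0.56 with Sqle and fatty acid synthesis genes 0.49. Cyp2c70, the enzyme that makes muricholic acids, the bile acids typical of mice, had r = 0.847 but adjusted p = 1. Outside the cholesterol and bile acid lists, Cxcl1 was nearest in the same direction, and Lrit2, Eif1ad, Esrra, Oplah and Osbpl5 in the opposite one, none of them called.

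The promoter of Hmgcs1 is shown because it holds a sterol regulatory element, the site that the Srebf proteins are known to bind. The letters searched were TCACCCCAC on both strands. They occur in 0.496% of the 32851 windows of 250 bases, and in 1 of the 17 genes of the cholesterol list that have a window. The capitals mark them in chr13:119690101-119690350 (plus strand, RefSeq, GRCm38.p6).
Hmgcs1: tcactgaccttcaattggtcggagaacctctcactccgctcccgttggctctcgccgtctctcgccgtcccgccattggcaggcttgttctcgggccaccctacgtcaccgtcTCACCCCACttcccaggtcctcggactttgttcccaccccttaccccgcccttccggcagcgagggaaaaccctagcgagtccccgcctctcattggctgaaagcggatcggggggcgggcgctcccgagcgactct
Natural elements vary from these letters, so the count covers this exact string only.

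Of the 15 bile acid synthesis genes, 9 had r above 0 and 6 below, with a median of 0.11. Cyp7a1, the rate-limiting enzyme, ran from 2779 (CT 1) over 5134 to 7281 (CT 5) and had r = -0.175. Cyp8b1, which makes cholic acid, ran from 2880 (CT 1) over 4819 to 7180 (CT 4), with r = 0.00363. Cyp7b1, which acts on oxysterols and is male-biased, ran from 1817 (CT 2) over 4821 to 7847 (CT 6). All 3 were called variable, as was Cyp39a1.

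PPAR alpha activity was read from Cyp4a14, a fatty acid hydroxylase (chromosome 4, 115486200 to 115496142). It had a lowest normalized value of 9.572 (CT 6), a median of 63.23 and a highest of 282.8 (CT 2), a 29.5-fold range, and was called variable (adjusted p = 3.52e-28). Cyp4a10, a neighbouring gene of the same family, ran from 101.2 (CT 8) over 196.5 to 832.8 (CT 2). The fatty acid transporter gene Cd36 and the pantetheinase gene Vnn1 were also highest in CT 2, at 733.7 and 550, and second in CT 7, at 514.3 and 393.1.

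With Cyp4a14, 0% of genes passed the threshold in limma (3 in edgeR, 2 higher and 1 lower), and at an unadjusted p 8.97% were higher and 9.69% lower. Cyp4a10 came closest among the list members (r = 0.928, adjusted p = 0.0581), and its r lay between 0.915 and 0.959 with a mouse left out. Cyp4a10, Lipe, Igfals and Cyp2c54 were among the genes with the smallest p in the higher direction, and Cep85l, Ubn2, Dmxl1, Etnk1 and Atrx in the lower one. Of the 24 other PPAR alpha targets, 21 had r above 0, with a median of 0.47, which was 0.27 without CT 2. Acadm and Acaa1b, enzymes of fatty acid oxidation, had r = 0.769 and 0.741, while Cpt1a had 0.207 and Fgf21 -0.0173.

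Other measures were set beside Cyp4a14. Of 7 tested adipocyte markers, 6 had r above 0 with it (median 0.59), and the summed normalized value of the list without Car3 was 1268 in CT 7, 1072 in CT 2, 889 in CT 4 and 447 to 688 elsewhere. The log2 of the adipocyte sum had r = 0.386 with Cyp4a14 (rho = 0.262, exact permutation p = 0.346, adjusted p = 0.875), and r = -0.273 without the 2 mice farthest from the median sum. Lipe, the hormone-sensitive lipase of fat cells, was highest in CT 2 (407.8) and CT 7 (324.7). The GC slope had r = 0.849 with Cyp4a14 (rho = 0.881, r = 0.691 without the 2 mice farthest from the median slope, exact permutation p = 0.00707, adjusted p = 0.297 over 42 tests). The slope on gene length had r = -0.798 (rho = -0.833, r = -0.801 without the 2 farthest mice, exact permutation p = 0.015, adjusted p = 0.315). Of 22 male-biased genes, 19 had r below 0 with Cyp4a14 (median -0.61). Of 21 pericentral genes, 18 had r above 0 (median 0.59), beside a median of 0.47 for the PPAR alpha targets. The part of these measures in the result was not tested. Without CT 7, 446 genes were called, and without CT 2, CT 4 and CT 7 there were 3.

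Interferon signalling was read from Ifit1, an antiviral protein that binds foreign RNA (chromosome 19, 34640871 to 34650009). Its normalized value was 130.2 at the lowest (CT 6), 205.8 at the median and 291.1 at the highest (CT 8), and it was not called variable (adjusted p = 0.739). The GTPase gene Igtp, which defends against parasites inside cells, ran from 537 (CT 6) over 1275 to 2304 (CT 8) and was called (adjusted p = 2.96e-07). The peptide transporter gene Tap1 ran from 276.6 (CT 6) over 565.1 to 774.8 (CT 8). CT 6 was lowest and CT 8 highest in each of these 3 genes. Igtp and Tap1 were picked by their small p with Ifit1, so these shared extremes follow in part from the choice. CT 6 is also the library with the lowest mitochondrial mRNA share of reads (3.79%), a share that had r = 0.653 with Ifit1 (rho = 0.405, exact permutation p = 0.0937, adjusted p = 0.636 over 42 tests) and r = -0.161 without the 2 mice farthest from the median share, and its part in the result was not tested. Igtp overlaps Irgm2 on the same strand, so the reads of the 2 genes may not have been told apart.

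The promoters of Ifit1 and Igtp are shown because both hold the interferon-stimulated response element, bound by factors that interferon activates. The element was searched on both strands, and its matches stand in capitals. It occurs in 2.98% of the 32851 windows and in 17 of the 34 interferon list genes that have a window (50%), among them Isg15, Rsad2, Cxcl10 and Gbp2. The list was chosen from genes known to answer interferon. The windows are chr19:34640639-34640888 and chr11:58199306-58199555 (both plus strand, RefSeq, GRCm38.p6).
Ifit1: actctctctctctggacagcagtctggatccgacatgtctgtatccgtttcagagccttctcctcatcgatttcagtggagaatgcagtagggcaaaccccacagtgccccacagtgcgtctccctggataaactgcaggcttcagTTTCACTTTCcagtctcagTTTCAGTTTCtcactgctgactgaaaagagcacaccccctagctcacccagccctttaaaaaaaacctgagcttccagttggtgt
Igtp: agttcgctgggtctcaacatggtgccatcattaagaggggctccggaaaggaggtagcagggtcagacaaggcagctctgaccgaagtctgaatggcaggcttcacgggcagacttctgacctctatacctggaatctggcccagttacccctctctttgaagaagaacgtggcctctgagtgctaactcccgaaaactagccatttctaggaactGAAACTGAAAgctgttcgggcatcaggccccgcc
Ifit1 holds 2 matches, both on the opposite strand, and Igtp holds 1.

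No gene passed the threshold with Ifit1 (0% in limma, 0 in edgeR), and at an unadjusted p 1.71% were higher and 1.25% lower. All 46 other interferon genes had r above 0, with a median of 0.62 beside -0.041 for all genes, and 21 of them had an unadjusted p under 0.05. The median was 0.53 without CT 6 and 0.63 on GC-corrected values. Usp18, which damps the interferon receptor, came nearest (r = 0.917, adjusted p = 0.837), with Igtp (0.887), Tap1 (0.85) and Gbp3 (0.829) also among the nearest members. Ddx58 and Bst2 had the weakest ties, 0.0472 and 0.0744. Members also went with one another: the median r over the 1081 pairs of list genes was 0.58, beside 0.0037 over pairs of all genes tested. Without CT 1, 8 genes were called.

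Genes outside the list with the smallest p were Irgm2 and Gbp4 in the same direction, both interferon-induced GTPases, and Klhl3, Acnat1, Adamts7, Sspo and Pisd-ps1 in the opposite one. Markers of Kupffer cells, the resident macrophages of the liver, went with Ifit1 in 12 of 14 cases (median r 0.42, and 0.28 without CT 6). Their summed normalized value ran from 6819 (CT 2) over 8441 to 9599 (CT 4). T and NK cell markers were lowest in CT 6, at a sum of 77.53 against a median of 137.1. The part of cell numbers in the result was not tested.

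Other lists differed between mice as well. Glucocorticoid targets had a median r of 0.57 over their 91 pairs. Fkbp5, a chaperone of the glucocorticoid receptor, ran from 493.3 (CT 3) over 969.6 to 1748 (CT 6), Tsc22d3 (also called Gilz) from 858.8 (CT 3) over 2272 to 4415 (CT 6), and the tyrosine aminotransferase gene Tat from 14921 (CT 3) over 31507 to 51735 (CT 6). CT 4 and CT 6 were the 2 highest mice for Tsc22d3 and Tat, and CT 3 was the lowest for all 3. Not every member followed: Zbtb16, of the same list, had 1663 in CT 6 but 143.2 in CT 4, below its median of 194.6. Heat shock genes had a median r of 0.72 over 105 pairs, with positive r in 99% of them. Their list mean was highest in CT 6 (0.501), CT 8 (0.431) and CT 1 (0.32). Hsph1 ran from 470.8 (CT 5) to 1759 (CT 1).

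Immediate early genes, which answer stimuli within minutes, were lowest in CT 8, with a list mean of -0.862 on the log2 scale. Egr1 had 132.2 in CT 8 and 682.8 to 2020 in the other mice, and Fos had 11.54 in CT 8 and 35.33 to 148.9 elsewhere. The 17 female-biased genes had their highest mean in CT 2 (0.919) and lowest in CT 6 (-0.486), and the 22 male-biased genes the reverse, with -0.402 in CT 2 and 0.557 in CT 6. On the linear scale the female-biased list summed highest in CT 7 (8661, against 7575 in CT 2) and lowest in CT 3 (4126), and the median r over its pairs was 0.13, so its order of mice depends on the scale. Moxd1, a male-biased monooxygenase gene chosen after its values were seen, had 137.8 in CT 6 and 1.724 to 8.325 in the other 7 mice.

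Between the index genes themselves, no pair passed correction. Of 21 pairs of Dbp, Arntl, Igfbp1, Fasn, Sqle, Cyp4a14 and Ifit1, 0 had an adjusted p under 0.05 in an exact two-sided permutation test, and 2 had an unadjusted p under 0.05. Dbp and Fasn had r = 0.834 and rho = 0.714 over 8 mice (exact permutation p = 0.0116 and 0.0576, adjusted p = 0.244 and 0.605), and r = 0.625 without the 2 mice farthest from the median of Dbp. Dbp and Cyp4a14 had r = 0.723 and rho = 0.786 (exact permutation p = 0.0434 and 0.0279, adjusted p = 0.437 and 0.586), and r = 0.389 without those 2 mice. Without CT 2 or CT 8 alone, r was 0.608 and 0.673. Sqle and Ifit1 had r = -0.001, and Igfbp1 and Sqle 0.00642. Without CT 2, 1 pair passed correction.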

How the data were processed

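Liver RNA of 8 sham-injected mice was analysed. The values the authors deposited are a normalized signal: each gene's count over the DESeq2 size factor of its library, set over 24 libraries. Per the submitters' processing notes, bcl2fastq 2.17, FastQC, Trimmomatic 0.38, STAR 2.6.1d, DESeq2 1.22.2 and GRCm38 were used. The labels name no counting tool, annotation or strand setting. Whole reads were recovered for 100% of values (tolerance 0.001 read). Of 22392 genes, 383 identifiers had no symbol. TPM used GENCODE M21 exon lengths.

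Tests covered genes with mean value at least 10. Variance was set against a fitted trend, CV squared = a1/mean + a0. Index gene fits used limma 3.58.1 (R 4.3.3) on log2(value + 1), with edgeR 4.0.16 on recovered reads as an alternative and Benjamini-Hochberg adjustment; both were tested on simulated data. Nothing says how the libraries were batched, and p-values measure the spread between these 8 samples. Named genes follow a rule: index genes, the 20 highest by TPM, the 20 most variable, the 5 nearest each index gene per direction (mean at least 50), and up to 6 members per list by p, with its defining members; with none called, the nearest are given as uncalled. Some genes that meet the rule are not reported here. Members, lists and rule were chosen with earlier results of these data known. Promoters are RefSeq sequences on GRCm38.p6.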

Additional observations from a re-analysis of the deposited data

Results flagged for a closer look

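Among 131 values tested for a single mouse far from the other 7, 11 stood out. With this test about 1 in 20 groups does so by chance, and 4.49% of the 13897 genes tested for variance did. Many of the 131 values belong to genes picked from these data, to which that rate does not apply. Most came from CT 6. Its normalized values were 55551 for mt-Atp6 (others 86437 to 128472), 85411 for mt-Co2, 68572 for mt-Co3, 52716 for mt-Cytb (others 100966 to 161774) and 60415 for mt-Nd1. These 5 genes lie on one mitochondrial genome and are not independent. In the same mouse, mitochondrially encoded mRNAs made up 3.79% of reads (others 5.87 to 7.21%) and 8.19% of transcript output (others 12.5 to 15%).

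CT 6 also had the lowest Irgm2, at 446.1 (others 1010 to 2000). CT 2 had the highest Cyp2a4, at 2211 (others 347.1 to 765.3). CT 4 had the highest Mt2, at 2243 (others 134.2 to 439.4). CT 3 had the lowest Osbpl5, a lipid transfer protein gene, at 62.54 (others 113 to 179.4). Cyp2a4 and Mt2 were picked for their variance. Irgm2 was picked by its small p with Ifit1, which is lowest in CT 6, and Osbpl5 with Sqle, which is highest in CT 3. These extremes follow in part from the choice.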

How the results depend on the processing

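Genes tied to Dbp numbered 177. With size factors set over the control mice alone there were 161, of which 151 were shared. The 177 became 47 with total reads, 268 at a mean of at least 50, 340 with the rank of Dbp and 2 without CT 2, CT 4 and CT 7. They became 0 with Arntl, depth as a covariate or GC-corrected values, and leaving out one mouse gave 1 to 285. With Arntl as index, sign turned, r over the 8 mice took the opposite sign for Agxt (-0.681), Golga3 (0.521), Ikzf5 (0.536), Lama3 (0.758), Leng8 (-0.688), Ninj1 (-0.62), Nr1d1 (-0.808), Pdgfrb (-0.707), Sfpq (0.649), Tbc1d10a (-0.581) and Zfp790 (0.728). The other index genes had 0. A mean of at least 1 gave 1 for Igfbp1 and 4 for Cyp4a14, ranks gave 1 for Igfbp1, a mean of at least 50 gave 1 for Sqle, edgeR gave 1 for Sqle and 3 for Cyp4a14, Acly as index gave 6 for Fasn, and leaving out CT 2, CT 4 and CT 7 gave 1 for Fasn and 3 for Cyp4a14. One mouse left out gave 0 to 3 (Igfbp1), 0 to 446 (Cyp4a14), 0 to 8 (Ifit1) and 0 to 1 index gene pairs. The 590 variable genes became 0 on log2 variances, 388 without CT 2, CT 4 and CT 7 and 506 to 543 with one mouse left out. Secreted groups held 32.4% of output, 27.7% by reads and 36.7% of protein-coding output. The cause was not tested. Settings added after seeing the data were the GC correction and leaving out CT 2, CT 4 and CT 7. No paired analysis was possible because only 1 group was used. Depth limits genes of few reads such as Arntl.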
